A study of Homo sapiens with 24 samples.

Results

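The heat shock, unfolded protein and amino acid stress genes of human cells were followed in clones that differed in Rap1, a protein of the shelterin complex at telomeres that is encoded by TERF2IP. All probes annotated to 36 listed genes were taken. 35 of these genes had at least 1 probe, HERPUD1 had none, and together they had 52 of the 47323 probes of the array. 11 genes had more than 1 probe and 24 had 1. The members fell into 3 lists: 18 probes of 11 cytosolic and mitochondrial heat shock genes, 11 probes of 10 of the 11 listed genes of the unfolded protein response of the endoplasmic reticulum (ER), and 23 probes of 14 genes of the integrated stress response. Total RNA had been hybridised to Illumina expression arrays. 20 arrays were used here, 2 for each of 10 clones. In HCT116, a line from a human colorectal carcinoma, clones 10, 21 and 28 were labelled knockout for Rap1 and clones 15, 20 and 23 wild type. In HT1080, a line from a human fibrosarcoma, clones 8 and 21 were knockout and clones 2 and 9 wild type. The knockouts had been made with TALENs, which are designed nucleases that cut a chosen DNA site, and the labels name no treatment of any group. Clones of another line were not analysed here.

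Heat shock proteins are chaperones that hold or refold other proteins, and heat shock factor 1 (HSF1) raises their transcription when unfolded protein builds up in the cytosol. Unfolded protein in the ER is sensed by separate sensors, which raise ER chaperones and folding enzymes through the transcription factors XBP1 and ATF6. In the integrated stress response, several kinases phosphorylate the translation factor eIF2, among them PERK in ER stress and GCN2 in amino acid shortage. General translation then drops while the mRNA of the transcription factor ATF4 is translated more. ATF4 induces genes for amino acid synthesis and import, other transcription factors such as DDIT3 (CHOP), and feedback regulators such as TRIB3 and PPP1R15A. Much of the control of ATF4 lies in translation, which an mRNA array does not measure.

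A promoter of each kind is shown, because each list answers to transcription factors of its own. The windows are RefSeq sequences of build GRCh38.p14, from 250 bases before to 50 bases after the gene's start, written 5′ to 3′ on the gene's strand, and capitals mark each match to the motif of that list. The integrated stress response windows of ASNS (chr7:97872359-97872658, minus strand) and CHAC1 (chr15:40953221-40953520, plus strand) were searched for TGATGNAA, the C/EBP-ATF composite element. In CHAC1 the match lay on the opposite strand.
ASNS: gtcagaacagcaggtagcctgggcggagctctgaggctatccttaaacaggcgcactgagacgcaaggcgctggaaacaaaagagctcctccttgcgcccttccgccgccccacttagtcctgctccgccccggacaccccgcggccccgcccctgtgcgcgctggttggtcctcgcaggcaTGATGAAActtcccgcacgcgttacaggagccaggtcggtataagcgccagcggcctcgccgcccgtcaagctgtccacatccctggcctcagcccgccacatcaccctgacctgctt
CHAC1: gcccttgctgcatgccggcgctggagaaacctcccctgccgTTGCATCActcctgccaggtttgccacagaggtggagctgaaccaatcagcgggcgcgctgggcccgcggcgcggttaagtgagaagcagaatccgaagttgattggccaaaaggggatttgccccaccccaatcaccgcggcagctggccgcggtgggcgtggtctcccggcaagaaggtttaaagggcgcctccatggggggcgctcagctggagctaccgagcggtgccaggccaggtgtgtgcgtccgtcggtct
The heat shock window of HSPA8 (chr11:123062087-123062386, minus strand) held 2 matches to the heat shock element, searched as GAA, TTC and GAA with 2 bases between the units, 1 on each strand.
HSPA8: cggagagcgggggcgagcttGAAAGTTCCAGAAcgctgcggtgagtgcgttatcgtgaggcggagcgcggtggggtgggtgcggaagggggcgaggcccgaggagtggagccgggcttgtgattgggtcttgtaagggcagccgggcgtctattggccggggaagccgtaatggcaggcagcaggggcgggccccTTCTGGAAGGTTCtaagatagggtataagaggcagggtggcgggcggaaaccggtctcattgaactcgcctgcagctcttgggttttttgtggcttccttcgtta
The ER window of HSPA5 (chr9:125241294-125241593, minus strand) held 1 match to the ER stress response element, searched as CCAAT and CCACG with 9 bases between them.
HSPA5: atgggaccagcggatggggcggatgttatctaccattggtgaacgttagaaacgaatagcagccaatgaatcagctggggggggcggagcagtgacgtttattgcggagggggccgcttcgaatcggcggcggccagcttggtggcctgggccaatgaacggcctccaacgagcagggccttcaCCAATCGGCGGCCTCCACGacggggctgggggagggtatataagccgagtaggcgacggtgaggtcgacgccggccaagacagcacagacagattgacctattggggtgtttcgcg

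Both strands were searched, and no motif here contains another. Of the 35 genes, 10 of the heat shock list, 10 of the ER list and 14 of the integrated stress response list had windows in the RefSeq table. TGATGNAA was in the windows of 4 integrated stress response genes (ASNS, ATF3, CHAC1 and SLC3A2), which is 17.4% of the 23 windows of that list, and in 3.62% of all 35116 windows. It was in no window of the heat shock or ER list. The heat shock element was in the windows of HSP90AA1, HSPA8 and HSPD1, 21.4% of 14 heat shock windows, against 0.49% of all windows. The ER stress response element was in those of CALR, HSP90B1, HSPA5 and XBP1, 33.3% of 12 ER windows, against 0.0769% of all. Neither was found in a window of the other member lists. A match describes the sequence and is not evidence that a factor bound there.

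All values are log2 differences from the median of the probe over the arrays of its line, as the authors had deposited them centred. The table therefore held no levels, the signal over background of a probe is unknown, and markers of the line could not be checked as levels. The sources used here do not give the log base, which was taken as 2. Nothing in the labels says if the paired arrays were separate cultures, so the clone was the replicate and its arrays were averaged, and the small number of clones limits the precision. TERF2IP itself was measured by 1 probe. In HT1080 it was -1.68 and -1.79 in clone 8 and -1.11 and -1.20 in clone 21 of the knockout, against 1.25 and 1.14 in clone 2 and 1.11 and 1.14 in clone 9 of the wild type. In HCT116 it was -0.0070 and -0.44 in clone 10, -0.77 and -0.29 in clone 21 and 0.048 and 0.0070 in clone 28, all labelled knockout, against 0.12 and 0.069 in clone 15, -0.28 and -0.26 in clone 20 and 1.45 and 1.21 in clone 23, labelled wild type. The HT1080 genotypes stood apart, while in HCT116 the wild-type clone 20 lay among the clones labelled knockout. The wild-type clone 15 (mean 0.094) lay close to clone 28 (0.028), so only clone 23 (1.33) stood apart. A nuclease edit need not lower the mRNA. Why wild-type clones 15 and 20 lay near the clones labelled knockout was not tested, and the HCT116 genotypes are given below as labelled.

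No member passed the test between knockout and wild type in either line. In HCT116, 0 of 52 member probes passed at adjusted p under 0.05 by limma, beside 15 of all probes, a background of 0.0317%, of which 6 were higher and 9 lower. With arrays centred on their medians, 8 probes passed, 2 higher and 6 lower. The smallest adjusted p of a member was 0.591. In HT1080, 0 member probes passed by limma, beside 2 of all probes (0.00423%), and the smallest adjusted p of a member was 0.864. At an unadjusted p under 0.05, 5 member probes passed in HCT116 (4 higher and 1 lower), against 8.32% of all probes, and 5 passed in HT1080 (3 higher and 2 lower), against 5.08%. With both lines in 1 limma fit, 0 of 52 passed, as did 0% of all probes, and 1 member passed unadjusted, against 4.52% of all.

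Differences of at least 0.5 between the genotypes made up a larger share of the members than of the array. 4 of 52 member probes in HCT116 differed by that much, against 0.733% of all probes and 0.99% of the probes with 1 gene symbol. In HT1080 there were 7 of 52, against 1.31% and 1.82%. This comparison is limited, as the members were chosen with earlier results of these data known and dim probes could not be filtered. The clones of 1 genotype also lay far apart for these genes. The larger of the 2 ranges within a genotype exceeded the difference between genotypes for 48 of 52 member probes in HCT116 (all probes, 91.9%) and for 46 of 52 in HT1080 (all probes, 75.4%). The median of that range was 0.65 in HCT116 and 0.63 in HT1080 for the integrated stress response, 0.37 and 0.23 for heat shock, and 0.31 and 0.32 for the ER list. Over all probes it was 0.25 in HCT116 and 0.17 in HT1080. The arrays of 1 clone differed by a median of only 0.11 in HCT116 and 0.10 in HT1080 over the member probes.

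**Figure D1:**
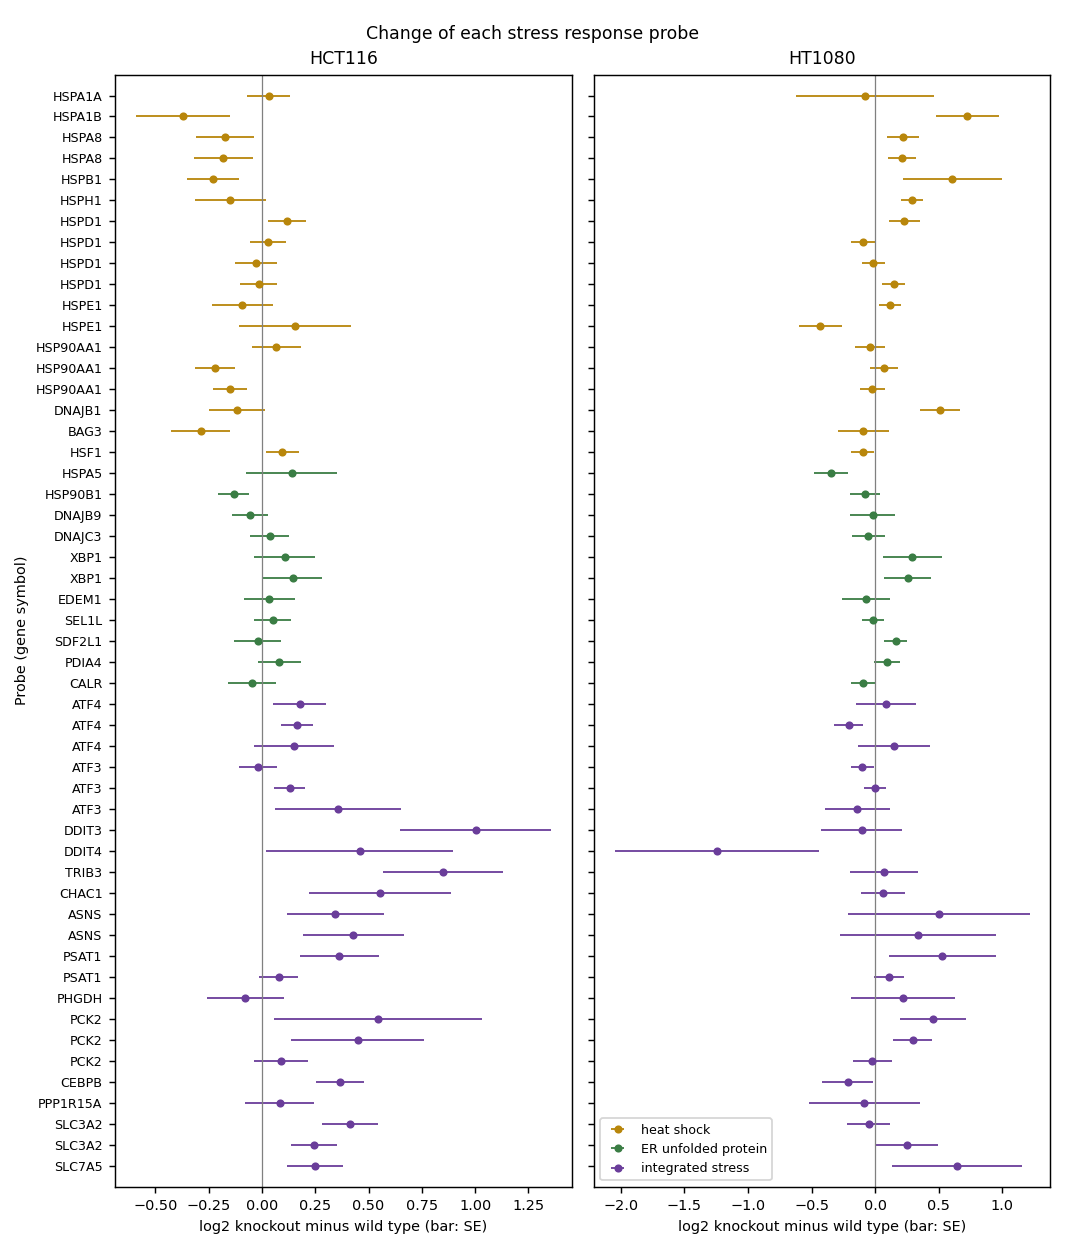
Change of each of the 52 member probes, as log2 knockout minus wild type (horizontal axis, a separate scale for each line), in HCT116 (left, 3 against 3 clones) and HT1080 (right, 2 against 2 clones). Points are the fitted change and bars its standard error; colours give the 3 lists. In HCT116, 21 of 23 integrated stress response probes lay above 0 and the longest bars were in that list, with DDIT3 at 1.00; in HT1080 DDIT4 lay at -1.25 with an SE of 0.80.

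In HCT116, the clones labelled knockout had a higher mean for most integrated stress response probes. 21 of 23 were higher and 2 lower, with a median difference of 0.34, whereas 70.2% of all probes were higher with a median of 0.056. With arrays centred on their medians the list's difference was 0.30, and the median of all probes was 0.015. No probe of the list passed the test, and the list's median was 0.10 without clone 10, labelled knockout, and 0.18 without the wild-type clone 20. Without wild-type clones 15 and 20, a choice made after seeing the data that left clone 23 alone, it was 0.14 (all probes, 0.077). 4 probes had all 3 clones labelled knockout above all 3 wild-type clones, against 13.1% of all probes, and 0 had them below, against 2.58%. These 4 were probes of ATF4, ATF3, CEBPB and SLC3A2. With arrays centred on their medians, 2 member probes, of ATF4 and ATF3, lay above in this way, against 7.26% of all probes.

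DDIT3, the transcription factor CHOP, had the largest difference of any member in HCT116. Its values were 1.17 and 1.13 in clone 10, -0.21 and -0.12 in clone 21 and 1.37 and 1.66 in clone 28, all labelled knockout, against -0.38 and -0.40 in clone 15, -0.36 and -0.21 in clone 20 and 0.12 and 0.23 in clone 23, labelled wild type. Clones 10 and 28 were high on both arrays, clone 21 lay among the wild-type clones, and the genotypes overlapped. The mean was 0.83 ± 0.88 in the clones labelled knockout and -0.17 ± 0.30 in the wild type (SD, n = 3 clones each), a difference of 1.00 ± 0.35 (SE, limma adjusted p = 0.591). Without clone 21, the one that lay among the wild type, it was 1.50 with a limma adjusted p of 0.00510, and on the whole array 164 probes passed. Leaving out the clone that went against a difference enlarges it. This p value is therefore not separate support for a difference between the genotypes. With any other HCT116 clone left out, 0 member probes passed, and the smallest limma adjusted p of a member lay between 0.583 and 0.882.

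TRIB3, a pseudokinase that dampens ATF4 and DDIT3, was likewise high in clones 10 and 28. It had 1.19 and 1.01 in clone 10, -0.16 and -0.055 in clone 21 and 0.73 and 1.03 in clone 28, all labelled knockout, against -0.46 and -0.49 in clone 15, -0.43 and -0.29 in clone 20 and 0.055 and 0.29 in clone 23, labelled wild type. The difference was 0.85 ± 0.28 (SE, limma adjusted p = 0.591), and without clone 21 it was 1.21 (limma adjusted p = 0.0188). Clone 21 went against this difference too, so the limit given for DDIT3 holds here. With any other clone left out TRIB3 did not pass. CHAC1, an enzyme that degrades glutathione, had 1.07 and 0.83 in clone 10, -0.73 and -0.26 in clone 21 and 0.63 and 0.66 in clone 28, all labelled knockout, against -0.50 and -0.44 in clone 15, -0.34 and -0.47 in clone 20 and 0.26 and 0.36 in clone 23, labelled wild type. Again clones 10 and 28 were high and clone 21 was low, and the difference was 0.55 ± 0.33 (SE, limma adjusted p = 0.632). ATF3, a transcription factor induced by ATF4, was read by 3 probes, of which ILMN_2374865 varied most. That probe had 0.80 and 0.60 in clone 10, -0.65 and -0.63 in clone 21 and 0.17 and 0.52 in clone 28, all labelled knockout, against 0.032 and 0.035 in clone 15, -0.67 and -0.55 in clone 20 and -0.14 and -0.032 in clone 23, labelled wild type. Its clone means spanned 1.34 within the genotype labelled knockout, against 0.23 and 0.077 as the larger range within a genotype for the other probes.

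The ATF4 mRNA itself varied less than DDIT3, TRIB3 and CHAC1 in HCT116. Its most variable probe, ILMN_2358457, had 0.64 and 0.52 in clone 10, -0.035 and -0.32 in clone 21 and 0.078 and 0.035 in clone 28, all labelled knockout, against -0.051 and -0.038 in clone 15, -0.30 and -0.15 in clone 20 and 0.27 and 0.30 in clone 23, labelled wild type. Clone 10 was highest, and the differences of the 3 ATF4 probes were 0.18, 0.16 and 0.15. CEBPB, which encodes a C/EBP factor that can pair with ATF4, had 0.30 and 0.34 in clone 10, 0.063 and 0.01 in clone 21 and 0.20 and 0.27 in clone 28, all labelled knockout, against -0.32 and -0.42 in clone 15, -0.19 and -0.042 in clone 20 and -0.01 and -0.011 in clone 23, labelled wild type. The clones labelled knockout lay above all wild-type clones by a narrow margin, which was lost with arrays centred on their medians (lowest clone labelled knockout 0.0056, highest wild-type clone 0.024). The difference was 0.36 ± 0.11 (SE, limma adjusted p = 0.591). PPP1R15A, the phosphatase subunit GADD34 that reverses the phosphorylation of eIF2, differed by 0.083 ± 0.16 (SE).

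Of the amino acid genes, PCK2, ASNS, SLC3A2 and SLC7A5 were highest in clone 10 of HCT116. PCK2, the mitochondrial enzyme that makes phosphoenolpyruvate, had on probe ILMN_1671791 1.27 and 1.42 in clone 10, -1.0 and -0.94 in clone 21 and 0.24 and 0.68 in clone 28, all labelled knockout, against -0.95 and -0.75 in clone 15, -0.21 and -0.23 in clone 20 and 0.21 and 0.34 in clone 23, labelled wild type. Clone 10 was the highest and clone 21 the lowest of all clones, though both were labelled knockout, and their means differed by 2.32. The difference between genotypes was 0.54 ± 0.49 (SE, limma adjusted p = 0.72), and it was 0.0090 without clone 10 and 1.17 without clone 21. The other probes gave 0.45 and 0.089. ASNS, asparagine synthetase, had on probe ILMN_2398107 0.54 and 0.95 in clone 10, -0.32 and -0.083 in clone 21 and 0.12 and 0.27 in clone 28, all labelled knockout, against -0.65 and -0.52 in clone 15, -0.30 and 0.023 in clone 20 and -0.023 and 0.37 in clone 23, labelled wild type. Clone 10 was again highest and the wild-type clone 15 lowest, with a difference between genotypes of 0.43 ± 0.24 (SE, limma adjusted p = 0.618) on this probe and 0.34 on the other. PSAT1 and PHGDH, both enzymes of serine synthesis, differed by 0.36 and 0.078 for the probes of PSAT1 and by -0.079 for PHGDH. SLC3A2 and SLC7A5 form a transporter of large neutral amino acids. For SLC3A2, probe ILMN_1679041 had 0.49 and 0.54 in clone 10, 0.044 and -0.044 in clone 21 and 0.059 and 0.28 in clone 28, all labelled knockout, against -0.16 and -0.15 in clone 15, -0.31 and -0.40 in clone 20 and 0.087 and -0.18 in clone 23, labelled wild type. The groups did not overlap once the arrays of a clone were averaged, but did with arrays centred on their medians (lowest clone labelled knockout -0.031, highest wild-type clone -0.014), and the difference was 0.41 ± 0.13 (SE, limma adjusted p = 0.591). Its other probe gave 0.24 and SLC7A5 gave 0.25.

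DDIT4 (REDD1), an inhibitor of the growth kinase mTORC1 that hypoxia also induces, depended on single clones. In HCT116 it had 1.39 and 1.33 in clone 10, -0.55 and -0.60 in clone 21 and 0.12 and 0.23 in clone 28, all labelled knockout, against -0.77 and -0.69 in clone 15, -0.28 and -0.12 in clone 20 and 0.32 and 0.73 in clone 23, labelled wild type. Clone 10 stood highest and the wild-type clone 23 next, and the difference of 0.46 ± 0.44 (SE, limma adjusted p = 0.735) was -0.062 without clone 10. In HT1080 it had -0.20 and -0.21 in clone 8 and 0.31 and -0.015 in clone 21 of the knockout, against 0.015 and -0.23 in clone 2 and 2.38 and 2.70 in clone 9 of the wild type. A single wild-type clone, 9, held the high values, and the other clones lay between -0.23 and 0.31. The difference there was -1.25 ± 0.80 (SE, limma adjusted p = 0.864). It was 0.078 without clone 9 and -2.57 without clone 2. Each of these left 1 wild-type clone, so the spread between wild-type clones could not enter. Of 14 probes of 11 other hypoxia targets in HT1080, clone 9 was highest in 7 and lowest in 0, against 33.9% of all probes for which it was highest. With arrays centred on their medians it was highest in 5 and lowest in 1, against 28.7% of all probes highest. The 3 genes of that list with the largest differences in HT1080 did not go 1 way. NDRG1, a hypoxia-induced gene, was 0.76 in clone 9, against 0.21 in clone 2. PFKFB4 was 0.12 in clone 9 and 0.16 in clone 2. ANGPTL4 was -0.057 in clone 9 and highest in knockout clone 8, at 0.17. The part of hypoxia targets in the DDIT4 values was not tested.

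**Figure D2:**
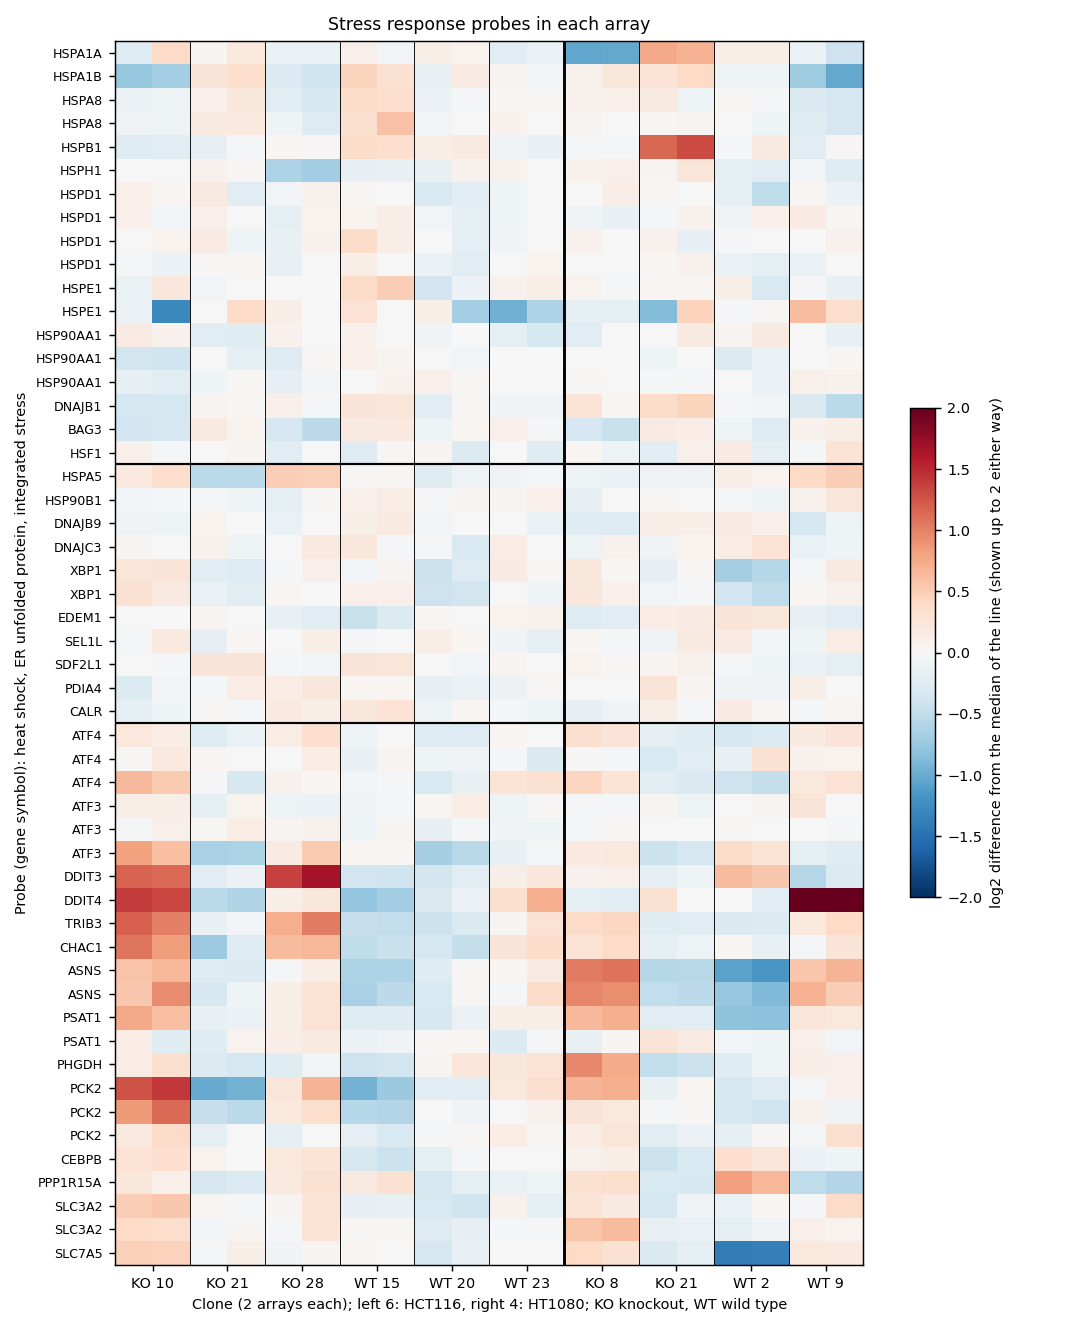
Log2 difference from the median of the line (colour, shown up to 2 either way) for each of the 52 member probes (rows, by list) in each of the 20 arrays (columns, 2 for each clone). The left block is HCT116 and the right HT1080, each with knockout (KO) before wild type (WT). The integrated stress response rows are mostly red in KO 10 of HCT116 and KO 8 of HT1080 and mostly blue in KO 21 of each line, and the arrays of a clone look alike.

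In HT1080, the integrated stress response probes did not lie to 1 side between the genotypes. 13 of 23 were higher in knockout and 10 lower, with a median difference of 0.070, against 38.5% higher and -0.037 for all probes. The median was 0.30 without knockout clone 21 and -0.20 without knockout clone 8, so its sign rested on which knockout clone was kept. It was -0.022 without the wild-type clone 2. 0 probes had both knockout clones above both wild-type clones, against 11.7% of all probes, and 2 (of ATF4 and ATF3) had them below, against 25.3%. With arrays centred on their medians these shares of all probes were 14.9% and 20.5%.

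Amino acid genes also spread widely among the HT1080 clones. ASNS had on probe ILMN_1796417 1.04 and 1.08 in clone 8 and -0.58 and -0.55 in clone 21 of the knockout, against -1.06 and -1.17 in clone 2 and 0.55 and 0.68 in clone 9 of the wild type. Each genotype held 1 high and 1 low clone. Mean values were 0.25 ± 1.15 in knockout and -0.25 ± 1.22 in wild type (SD, n = 2 clones each), a difference of 0.50 ± 0.71 (SE, limma adjusted p = 0.917), while the other probe gave 0.34. PSAT1 showed the same order on probe ILMN_1692938, with 0.65 and 0.72 in clone 8 and -0.21 and -0.21 in clone 21 of the knockout, against -0.80 and -0.82 in clone 2 and 0.25 and 0.21 in clone 9 of the wild type. Its difference was 0.53 ± 0.42 (SE, limma adjusted p = 0.868), and its other probe gave 0.11. SLC7A5 had 0.39 and 0.30 in clone 8 and -0.29 and -0.20 in clone 21 of the knockout, against -1.40 and -1.37 in clone 2 and 0.21 and 0.20 in clone 9 of the wild type. The wild-type clone 2 was far below the other 3 clones, and the difference of 0.64 ± 0.51 (SE, limma adjusted p = 0.869) was -0.15 without it.

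PCK2 on probe ILMN_1671791 had 0.68 and 0.72 in clone 8 and -0.15 and 0.035 in clone 21 of the knockout, against -0.34 and -0.25 in clone 2 and -0.035 and 0.10 in clone 9 of the wild type. Knockout clone 8 was highest, and the difference was 0.45 ± 0.26 (SE, limma adjusted p = 0.864), with 0.29 and -0.021 on its other probes. PHGDH was also highest in clone 8, at 0.85, against -0.46 in knockout clone 21. SLC3A2 gave -0.05 and 0.25 between genotypes. DDIT3 and PPP1R15A did not share this order. DDIT3 had 0.087 and 0.11 in clone 8 and -0.20 and -0.087 in clone 21 of the knockout, against 0.63 and 0.54 in clone 2 and -0.56 and -0.27 in clone 9 of the wild type. PPP1R15A had 0.30 and 0.36 in clone 8 and -0.30 and -0.31 in clone 21 of the knockout, against 0.82 and 0.67 in clone 2 and -0.51 and -0.59 in clone 9 of the wild type. Both were highest in the wild-type clone 2, where ASNS, PSAT1 and SLC7A5 were low, and lowest in the wild-type clone 9. The clone means of ATF3 probe ILMN_2374865 were 0.21 in knockout clone 8 and -0.39 in knockout clone 21, against 0.32 in clone 2 and -0.22 in clone 9 of the wild type. For ATF4 probe ILMN_2358457 they were 0.35 and -0.24 in knockout clones 8 and 21, against -0.44 and 0.25 in wild-type clones 2 and 9. For ATF4 probe ILMN_1672128 they were 0.29 and -0.21 in the knockout clones, against -0.31 and 0.22 in the wild-type ones. Both ATF4 probes thus had the clone order of ASNS and PSAT1, not that of DDIT3. The third ATF4 probe, ILMN_1783394, did not, with 0 and -0.26 in the knockout clones, against 0.08 and 0.074 in the wild-type ones. TRIB3, CHAC1 and CEBPB differed between genotypes by 0.07, 0.062 and -0.22.

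Whether clones of 1 genotype differed was tested by a limma F test within genotypes over single arrays, a comparison added after seeing the data. Its error is the spread between arrays of a clone, which may be technical only. In HCT116, 30 of 52 member probes passed at adjusted p under 0.05, against 10.5% of all probes and 13.8% of those with 1 gene symbol. They were 17 of 23 for the integrated stress response, 9 of 18 for heat shock and 4 of 11 for the ER list. In HT1080, 23 of 52 passed, against 8.74% and 11.6%, with 15 of 23, 4 of 18 and 4 of 11 in the same order of lists. The limma adjusted p of this test was 1.44e-08 for PCK2, 2.91e-08 for DDIT4 and 1.59e-07 for DDIT3 in HCT116. For ASNS, DDIT4 and SLC7A5 in HT1080 it was 6.93e-08, 4.93e-07 and 1.24e-06.

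The integrated stress response probes were mostly high in the same clone. In HCT116 the median of the 23 probes was 0.51 in clone 10, -0.17 in clone 21 and 0.18 in clone 28, labelled knockout, against -0.24 in clone 15, -0.21 in clone 20 and 0.040 in clone 23, labelled wild type. Clone 10 was the highest of the 6 clones for 17 of 23 probes, against 31.5% of all probes. With arrays centred on their medians it was highest for 16, against 10562 of all 47323 probes. The wild-type clone 15 was lowest for 10, against 19.1% of all probes. In HT1080 the list's median was 0.29 in clone 8 and -0.21 in clone 21 of the knockout, against -0.11 in clone 2 and 0.12 in clone 9 of the wild type. Clone 8 was highest for 14 of 23 probes, against 18.9% of all probes. Lowest values were in clone 2 for 10 probes (24.2% of all probes) and in clone 21 for 9 (28.6%). In each line a knockout clone was thus highest for most of the list and another knockout clone had a median below 0.

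**Figure D3:**
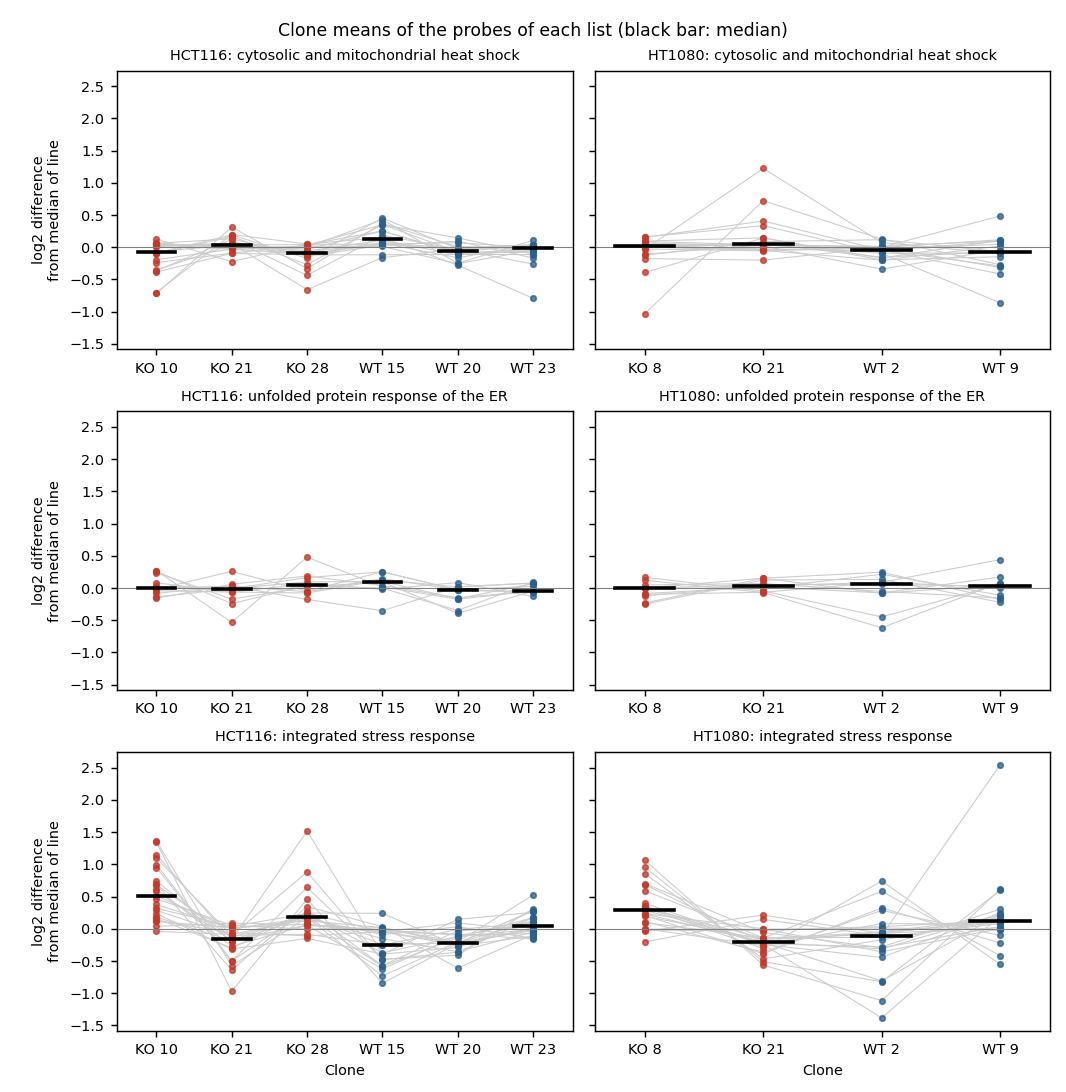
Clone means of the member probes by list (rows of panels) in HCT116 (left) and HT1080 (right), as log2 difference from the median of the line; grey lines join the values of a probe, red points are knockout and blue points wild-type clones, and black bars are medians. The integrated stress response medians run from 0.51 in KO 10 to -0.24 in WT 15 in HCT116 and from 0.29 in KO 8 to -0.21 in KO 21 in HT1080, while the medians of the other lists stay between -0.092 and 0.13.

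The heat shock and ER lists did not follow this order of clones. In HCT116 the heat shock median was -0.080 in clone 10, 0.040 in clone 21 and -0.092 in clone 28, labelled knockout, against 0.13 in clone 15, -0.052 in clone 20 and -0.017 in clone 23, labelled wild type. The wild-type clone 15, lowest for many integrated stress response probes, was highest for 11 of 18 heat shock probes, against 14.6% of all probes. The ER medians lay between -0.046 and 0.095 in HCT116 and between -0.0032 and 0.056 in HT1080. Of 14 hypoxia probes in HCT116, clone 10 was highest for 6 (31.5% of all probes) and the wild-type clone 15 lowest for 7 (19.1%). Between genotypes 8 were higher and 6 lower. NDRG1 was 1.32, 0.019 and 1.31 in clones 10, 21 and 28, against -0.77, -0.24 and -0.024 in clones 15, 20 and 23. Its difference of 1.23 (limma adjusted p = 0.548) exceeded that of every member. The part of hypoxia targets was not tested. Markers of epithelial cells moved partly with the integrated stress response in HCT116. 12 of 13 epithelial probes were higher in the clones labelled knockout and 1 was lower (median difference 0.22), where 70.2% of all probes were higher. Clone 10 was highest for 7 of them (31.5% of all probes) and the wild-type clone 20 lowest for 9 (18.9%). The median of the 13 was 0.24 in clone 10, -0.051 in clone 21 and 0.064 in clone 28, against 0.063 in clone 15, -0.28 in clone 20 and -0.082 in clone 23. Their part in the result was not tested. In HT1080 the epithelial medians lay between -0.0089 and 0 in the 4 clones. Of 16 probes of mesenchymal markers, 10 were higher and 6 lower in the HCT116 clones labelled knockout (median difference 0.038), and in HT1080 8 were higher and 8 lower in knockout (-0.0091). Single genes of this list differed by far more in single clones. In HCT116 VIM, the intermediate filament vimentin, had clone means of -0.63, 0.43 and -0.42 in clones 10, 21 and 28, labelled knockout, against -0.84, 1.50 and 0.98 in clones 15, 20 and 23, labelled wild type (probe ILMN_2058251), and TWIST1 differed between the genotypes by -0.82 (limma adjusted p = 0.591). In HT1080 COL1A2, a collagen chain, was 1.48 and 1.79 on its probes in knockout clone 21 and at most 0.055 in the other clones. LOX, a collagen crosslinking enzyme, was -1.37 in knockout clone 21, and SPARC, a matrix protein, was -0.80 in knockout clone 8. The part of these clone differences in the stress response values was not tested.

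A wider list of integrated stress response genes, which held none of the members, was also most often highest in clone 10 of HCT116 and clone 8 of HT1080. It had 69 probes of 51 genes with a probe, of 54 listed. Clone 10 of HCT116 was highest for 33 of 69 probes (31.5% of all probes) and the wild-type clone 20 lowest for 31 (18.9%). With arrays centred on their medians clone 10 was highest for 28 of 69, against 10562 of all 47323 probes. Clone 8 of HT1080 was highest for 27 (18.9%) and the wild-type clone 9 for 25 (33.9%), and the wild-type clone 2 was lowest for 32 (24.2%). By the F test within genotypes, 20 of 69 passed in HCT116, against 10.5% of all probes, and 22 of 69 in HT1080, against 8.74%. Between genotypes 0 of 69 passed in either line by limma, and at an unadjusted p under 0.05 there were 12 in HCT116 (11 higher and 1 lower), against 8.32% of all probes, and 2 in HT1080 (1 higher and 1 lower), against 5.08%. The largest differences in HCT116 were those of GDF15, a secreted stress cytokine, at 0.89, of PSPH, the last enzyme of serine synthesis, at 0.46 and of CTH, which makes cysteine, at 0.45. In HT1080 they were those of CBS, which makes cystathionine, at 0.82, of KLHL24, a substrate adaptor of a ubiquitin ligase, at -0.50 and of MTHFD2, a mitochondrial folate enzyme, at 0.41. TGATGNAA was in the windows of 14 of 42 genes of this list that had a window, 23.3% of 60 windows.

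**Figure D4:**
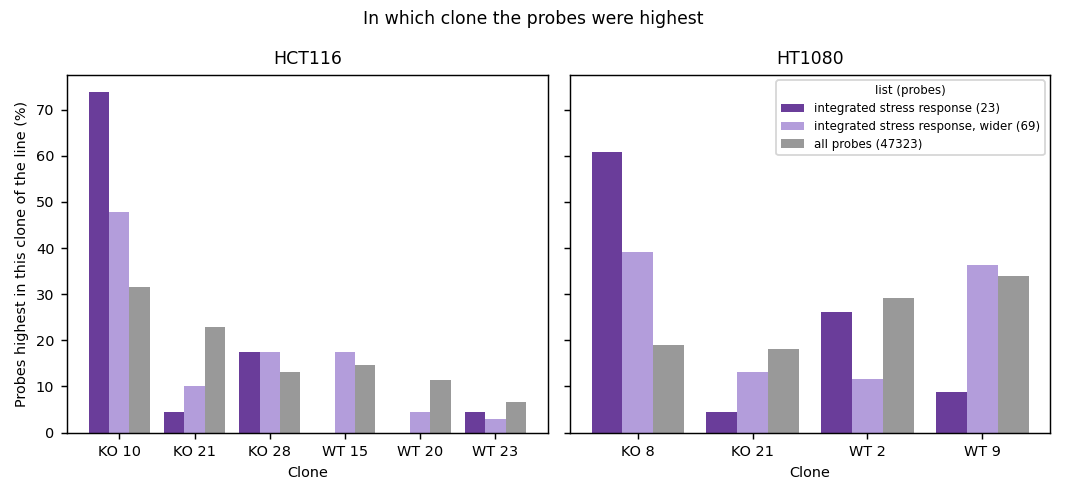
Share of probes (percent, vertical axis from 0) that were highest in each clone of the line, for the 23 integrated stress response member probes, the 69 probes of the wider list and all 47323 probes, with knockout clones left of wild-type clones. The member list was highest in KO 10 of HCT116 for 73.9% of probes and in KO 8 of HT1080 for 60.9%, against 31.5% and 18.9% of all probes.

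The heat shock list had median differences of opposite sign in the 2 lines. In HCT116, 6 of 18 probes were higher and 12 lower in the clones labelled knockout, with a median difference of -0.11, which was 0.0095 without the wild-type clone 15. In HT1080, 10 were higher and 8 lower, with a median of 0.093. 8 of 18 heat shock probes had both HT1080 knockout clones above both wild-type clones, against 11.7% of all probes, and 2 had them below, against 25.3%. The 8 were probes of HSPA1B, HSPA8 (both), HSPH1, HSPD1 (2 of 4), HSPE1 and DNAJB1, and the 2 were the other HSPE1 probe and HSF1. None of the 18 passed the limma test in either line.

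HSPA1A and HSPA1B encode nearly identical inducible HSP70 chaperones, and which copy each probe reads was not checked here. In HT1080, HSPA1B had 0.092 and 0.23 in clone 8 and 0.28 and 0.39 in clone 21 of the knockout, against -0.092 and -0.097 in clone 2 and -0.71 and -1.02 in clone 9 of the wild type. The knockout clones were higher on every array, by a small margin over clone 2 and a large one over clone 9. The mean was 0.25 ± 0.12 in knockout and -0.48 ± 0.54 in wild type (SD, n = 2 clones each), a difference of 0.73 ± 0.25 (SE, limma adjusted p = 0.864). Without clone 2, which left clone 9 as the only wild-type clone, the difference was 1.11. HSPA1A did not part the genotypes, with -1.03 and -1.03 in clone 8 and 0.75 and 0.69 in clone 21 of the knockout, against 0.13 and 0.12 in clone 2 and -0.12 and -0.42 in clone 9 of the wild type. The knockout clones were the extremes of the line. In HCT116, HSPA1B had -0.76 and -0.67 in clone 10, 0.26 and 0.36 in clone 21 and -0.27 and -0.39 in clone 28, all labelled knockout, against 0.44 and 0.30 in clone 15, -0.15 and 0.16 in clone 20 and 0.051 and -0.051 in clone 23, labelled wild type. Clone 10 was lowest, clone 21 lay within the range of the wild type, and the difference was -0.37 ± 0.22 (SE, limma adjusted p = 0.628).

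DNAJB1, the HSP40 partner that loads client proteins onto HSP70, had in HT1080 0.27 and 0.037 in clone 8 and 0.37 and 0.44 in clone 21 of the knockout, against -0.037 and -0.051 in clone 2 and -0.29 and -0.54 in clone 9 of the wild type. The knockout clones were above the wild-type ones without overlap, as for 11.7% of all probes. The difference was 0.51 ± 0.16 (SE, limma adjusted p = 0.864), and in HCT116 it was -0.12. HSPB1, the small heat shock protein HSP27, had in HT1080 -0.027 and -0.034 in clone 8 and 1.15 and 1.30 in clone 21 of the knockout, against -0.033 and 0.18 in clone 2 and -0.22 and 0.027 in clone 9 of the wild type. Clone 21 alone was high, so the difference of 0.61 ± 0.39 (SE, limma adjusted p = 0.864) was -0.018 without it. HSPH1, a nucleotide exchange factor of HSP70, differed by 0.29 ± 0.088 in HT1080 and -0.15 ± 0.17 in HCT116 (SE). In HCT116, clone 28 was lowest for HSPH1 at -0.66. BAG3, a co-chaperone that directs HSP70 clients to autophagy, differed by -0.093 ± 0.20 in HT1080 and -0.29 ± 0.14 in HCT116 (SE). HSPA8, the constitutive HSC70, gave 0.22 and 0.21 in HT1080 and -0.17 and -0.18 in HCT116 on its probes.

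The remaining heat shock members were HSP90AA1, HSPD1, HSPE1 and HSF1. For the 3 probes of HSP90AA1, the inducible cytosolic HSP90, the differences were 0.067, -0.22 and -0.15 in HCT116. In the last 2 of these all clones labelled knockout lay below all wild-type clones, as for 2.58% of all probes. In HT1080 the same probes gave -0.042, 0.069 and -0.024. The mitochondrial chaperonin HSPD1 (HSP60) had 4 probes, whose differences ran from -0.027 to 0.12 in HCT116 and from -0.092 to 0.23 in HT1080. Its partner HSPE1 (HSP10) had 2 probes that went opposite ways, at 0.12 and -0.43 in HT1080 and -0.091 and 0.16 in HCT116. Within the HCT116 genotypes the clone means of these HSPE1 probes spanned up to 0.68 and 0.94. The second of these, ILMN_2092536, also differed most between arrays of a clone, by a mean of 0.42 in HT1080 and 0.51 in HCT116. HSF1 itself differed by -0.099 in HT1080 and 0.095 in HCT116.

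A wider heat shock list of 50 probes of 32 genes, of 35 listed, had 0 probes past the limma threshold in either line. At an unadjusted p under 0.05 there were 6 in HCT116 (1 higher and 5 lower), against 8.32% of all probes, and 5 in HT1080 (4 higher and 1 lower), against 5.08%. In HCT116, 17 of 50 were higher and 33 lower (median -0.041), where 70.2% of all probes were higher. In HT1080, 37 of 50 were higher (median 0.12), against 38.5% of all probes. There the wild-type clone 2 was lowest for 24 of the 50 (24.2% of all probes), with a median of -0.072. The list's median was 0.0015 in wild-type clone 9, near the 0.017 and 0.020 of knockout clones 8 and 21. The largest differences in HCT116 were those of HSPA2, an HSP70 known from the testis, at -0.44, and of the HSP40 proteins DNAJB6 and DNAJB2 at -0.32 and -0.27. In HT1080 they were those of HSPA13 at 0.51, HSPB8 at -0.43 and HSPA2 at 0.37. The wild-type clone 15 of HCT116 was highest for 27 of the 50 (14.6% of all probes), as it was for most of the member list.

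The ER unfolded protein response members differed little. The ER differences ran from -0.13 to 0.14 in HCT116 and from -0.35 to 0.29 in HT1080, and their medians were 0.037 and -0.020. With arrays centred on their medians they were -0.0043 and 0.0013, so neither sign held under that scaling. HSPA5, the ER chaperone BiP, was the member of this list with the widest spread in HCT116, where it had 0.19 and 0.35 in clone 10, -0.54 and -0.53 in clone 21 and 0.49 and 0.47 in clone 28, all labelled knockout, against 0.016 and 0.022 in clone 15, -0.25 and -0.098 in clone 20 and -0.075 and -0.016 in clone 23, labelled wild type. Clones 10 and 28 were higher and clone 21 lower than every wild-type clone, so the difference of 0.14 ± 0.21 (SE, limma adjusted p = 0.835) lay inside the spread of the clones labelled knockout. In HT1080 HSPA5 had -0.084 and -0.11 in clone 8 and -0.063 and -0.069 in clone 21 of the knockout, against 0.11 and 0.063 in clone 2 and 0.39 and 0.49 in clone 9 of the wild type. The knockout clones were below the wild-type ones without overlap, as for 25.3% of all probes, and 1 of 11 ER probes did this. The difference was -0.35 ± 0.14 (SE, limma adjusted p = 0.864). XBP1, whose mRNA is spliced by the sensor IRE1, had 2 probes with differences of 0.11 and 0.14 in HCT116 and 0.29 and 0.25 in HT1080, where the wild-type clone 2 was lowest on both. Whether either probe tells the spliced form apart was not checked here.

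The ER chaperones and folding enzymes HSP90B1 (GRP94), CALR, PDIA4 and SDF2L1 gave -0.13, -0.047, 0.082 and -0.021 in HCT116. In HT1080 they gave -0.082, -0.092, 0.092 and 0.16. All clones labelled knockout lay below the wild type for HSP90B1 in HCT116 (2.58% of all probes), and both knockout clones above it for SDF2L1 in HT1080 (11.7%). The ER co-chaperones DNAJB9 and DNAJC3 gave -0.055 and 0.037 in HCT116 and -0.02 and -0.053 in HT1080. EDEM1 and SEL1L, which act in the degradation of misfolded ER proteins, gave 0.035 and 0.051 in HCT116 and -0.074 and -0.016 in HT1080. A wider list of 55 probes of 37 ER genes, of 38 listed, had 0 past the limma threshold in either line, and 6 in HCT116 and 1 in HT1080 at an unadjusted p under 0.05, against 8.32% and 5.08% of all probes. Its largest differences were those of the sensor ATF6 at 0.37, the retrieval receptor KDELR3 at -0.36 and STC2 at 0.28 in HCT116, and of WFS1 at 0.69, KDELR3 at 0.25 and DERL3 at -0.22 in HT1080.

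The difference between genotypes was also compared between the lines. 0 of 52 member probes passed in the limma interaction test, beside 14 of all probes (0.0296%), and the smallest adjusted p of a member was 0.478. At an unadjusted p under 0.05 there were 4, against 9.83% of all probes. They were HSPA1B (HCT116 minus HT1080 -1.10 ± 0.39), DNAJB1 (-0.63 ± 0.23), CEBPB (0.58 ± 0.24) and ATF4 probe ILMN_1783394 (0.37 ± 0.13, all SE). A heat shock difference between the lines was therefore not shown for any single member by this test.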

How the data were processed

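The authors had deposited 1 table of log2 values, already centred for each probe on its median over the arrays of a line (largest line median 5e-07). Per the labels, extraction used QIAGEN RNeasy columns and the label was biotin. Background correction, normalization and software are not given in the sources used here. Probes were named from GEO's platform annotation: 30113 had 1 symbol, 8 several and 17202 none, and 30074 were updated through Entrez identifiers. No filter on dim probes was possible. Array medians lay between -0.0542 and 0.0684.

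Knockout was compared with wild type on clone means by limma 3.58.1 (R 4.3.3; lmFit, eBayes, two-sided, threshold 0.05 after Benjamini-Hochberg adjustment over 47323 probes), within each line, over both lines with the line as a factor, and as an interaction. The F test within genotypes used single arrays. The fits were tested on simulated data. Members and lists were chosen with earlier results of these data known. Array values are given for the 8 members with the largest absolute differences in each line, and for others named after their values were seen. Alternatives were array scaling, probe choice, a robust prior, single arrays, an array-number block, 1 fit of both lines and leaving out clones.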

Additional observations from a re-analysis of the deposited data

Results flagged for a closer look

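ATF4 probe ILMN_1783394 went opposite ways in the lines. In HCT116 all 3 clones labelled knockout lay above all 3 wild-type clones (difference 0.16), as for 13.1% of all probes. In HT1080 both knockout clones were below the wild-type ones (-0.21), as for 25.3% of all probes. For this probe the arrays of a clone differed by a mean of 0.14 in HCT116 and 0.15 in HT1080, near the size of these differences. In the F test within genotypes its limma adjusted p was 0.905 and 0.518. The HCT116 difference minus the HT1080 difference was 0.37 ± 0.13 (SE) and did not pass the limma interaction test (adjusted p = 0.478). The other ATF4 probes gave 0.18 and 0.15 in HCT116 and 0.085 and 0.15 in HT1080, so they did not show it.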

How the results depend on the processing

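In HCT116, DDIT3 (1.50) and TRIB3 (1.21) passed the threshold without clone 21, the clone labelled knockout whose values went against these differences. In HT1080 without clone 2, which left 1 wild-type clone, HSPA1B was 1.11 and DDIT4 -2.57. Of 232 repeats of the 16 named differences, 225 kept their direction and 7 turned. Repeats with a robust prior, the array-number block or 1 fit of both lines could not turn, as these settings leave the difference itself unchanged. The tally therefore overstates how far the directions were tried. Those that turned were DDIT4 in HCT116 (-0.062 to 0.91 with 1 clone left out, lowest without clone 10, and -0.20 without wild-type clones 15 and 20, a choice made after seeing the data) and, in HT1080, DDIT4 (-2.57 to 0.078, highest without clone 9), SLC7A5 (-0.15 to 1.44, lowest without clone 2), HSPB1 (-0.018 to 1.24, lowest without clone 21) and ASNS (-0.36 without clone 2 and -0.31 without clone 8, to 1.37). The cause was not tested. Over settings that left out 1 clone of HCT116, member probes past the threshold numbered 0 to 2. In HT1080 each such setting left a genotype with 1 clone.

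Counts over all probes moved with the setting. In HCT116, where 15 passed, there were 8 with arrays centred, 0 with the mean of a gene's probes, 3 with the most variable probe, 25 with first arrays alone, 0 without wild-type clones 15 and 20, and 0 (without clone 23) to 164 (without clone 21) when 1 clone was left out. In HT1080, where 2 passed, there were 5 after quantile normalization, 0 with the mean of probes, 5 with a robust prior, 12 and 9 with first or second arrays alone, 28 with 1 fit of both lines, and 0 (without clone 8) to 121 (without wild-type clone 9) with a clone left out. Both lines together gave 0 to 1 with a clone left out. The interaction, at 14, gave 9 with the mean of probes, 0 without wild-type clones 15 and 20, and 12 to 115 with a clone left out.

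Member probes whose genotypes did not overlap in HCT116 were 4 higher and 3 lower of 52, against 13.1% and 2.58% of all probes. With arrays centred 2 were higher (7.26% of all probes), and after quantile normalization 1 was higher (6.49%). Of 35 genes, 2 were higher and 1 lower with the mean of probes or the most variable probe. Of all 20046 genes, 2589 were higher and 651 lower with the mean, and 2360 and 717 with the most variable probe. With second arrays alone 1 was lower (3.06%). Without wild-type clones 15 and 20, 12 were higher and 7 lower, against 43.7% and 12.2%. With a clone left out, 5 to 17 were higher and 3 to 7 lower, against 17.1% to 25.7% and 4.35% to 7.09%. In HT1080 they were 9 higher and 5 lower of 52, against 11.7% and 25.3% of all probes. With the mean of probes 5 genes were higher and 3 lower, against 2765 and 4723 of all 20046 genes. With the most variable probe 3 were lower, against 4514. With a clone left out, where a group of 1 parts more easily, 14 to 25 member probes were higher and 11 to 16 lower. The shares of all probes were then 23.9% to 29.3% higher and 41.0% to 46.1% lower.

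Array numbers did not pair the clones: the differences between arrays 1 and 2 correlated between clones at r from -0.16 to 0.15 over 15 pairs in HCT116 and from -0.042 to 0.12 over 6 pairs in HT1080. With a replicate block for array number and the clone as a random block, 221 probes passed in HCT116, 89 in HT1080, 69 together and 219 in the interaction, and 0 members in any. No value here has a level, so signal over background limits the members to an unknown degree.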
